A study of Homo sapiens with 12 samples.

Results

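The Krüppel-like factors (KLFs) are transcription factors that bind GC-rich and CACCC-containing DNA through zinc fingers at the end of the protein. The 10 KLF genes described here, KLF2, KLF3, KLF4, KLF5, KLF6, KLF9, KLF10, KLF11, KLF13 and KLF16, were selected by symbol from a table of 15798 genes, and all 10 were present in it. HCT116 cells, a human colorectal cancer line, were treated for 24 h with 100 nM trametinib (TRAM), an inhibitor of the kinases MEK1/2, or with the solvent DMSO. Cycloheximide was added to both treatments shortly before lysis. From the lysates, cytoplasmic RNA that was fragmented at random (input, IN) and ribosome-protected fragments from the monosomal fraction (RPF, called footprints here) were sequenced, with 3 libraries for each treatment and kind of RNA, 12 libraries in 4 groups.

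In the intestinal epithelium, KLF4 is known from differentiated cells and as a brake on the cell cycle, whereas KLF5 is known from the dividing cells of the crypt. KLF10 and KLF11 were first described as early genes of TGF-beta signalling and, like KLF9, KLF13 and KLF16, recruit the SIN3 corepressor, while KLF3 represses through the CtBP proteins. KLF2 and KLF6 are known as early response genes, KLF2 above all in endothelium. Several KLF proteins, KLF4 and KLF5 among them, are known to turn over quickly.

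The members are most alike in their zinc fingers and in the short linkers between neighbouring fingers. The 30-base windows of the reading frame around the first such linker are shown for 7 members because a footprint or an input read is about as long as one window (25 to 35 bases). Capitals mark the 13 bases that are identical in all 7 sequences.
KLF2: acgCAcACaGGtGAgaagCCcTaccacTGc
KLF3: acaCAcACaGGaGAaaaaCCcTacaaaTGt
KLF4: accCAcACaGGtGAgaaaCCtTaccacTGt
KLF5: actCAcACtGGtGAaaagCCaTacaagTGt
KLF6: acgCAcACaGGaGAaaagCCtTacagaTGc
KLF9: gtgCAtACaGGtGAacggCCcTttcccTGc
KLF11: actCAcACaGGgGAgaagCCtTtcaacTGc
The windows come from the main transcripts of Gencode v44 on GRCh38, all in coding sequence, at chr19:16326023-16326875 for KLF2 on the plus strand, chr4:38694897-38697101 for KLF3 on the plus strand, chr9:107485907-107487037 for KLF4 on the minus strand, chr13:73063874-73075727 for KLF5 on the plus strand, chr10:3780210-3781650 for KLF6 on the minus strand, chr9:70387986-70412868 for KLF9 on the minus strand, chr2:10048586-10052246 for KLF11 on the plus strand. All 7 windows cross a coding exon boundary, so that their coordinates include an intron. The 21 pairs of windows were identical at between 16 and 26 of the 30 bases, and the closest pair, KLF2 and KLF4, differed at 4 bases. Across the whole reading frame, between 95.3% (KLF3) and 100% (KLF4, KLF5, KLF6, KLF10, KLF11 and KLF13) of the 30-base windows of a member were found in no other gene. The windows of KLF3 that were shared matched the pseudogene KLF3P1, those of KLF2 matched the pseudogenes KLF2P3 and KLF2P4, 2 windows of KLF9 matched SP2, and 5 of KLF16 matched KLF14. Reads were counted only where they fell inside reading frames of a single symbol, and whether reads shared with a pseudogene entered the counts was not tested.

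The 250 bases before the annotated start are shown for KLF4 and KLF5, the pair with contrasting roles in the gut epithelium. The sequences were taken from RefSeq on GRCh38.p14, at chr9:107489770-107490019 on the minus strand for KLF4 and at chr13:73058755-73059004 on the plus strand for KLF5. Capitals mark GC boxes, which read GGGCGG, boxes that read CACCC, and E-boxes, which read CACGTG, on either strand.
KLF4: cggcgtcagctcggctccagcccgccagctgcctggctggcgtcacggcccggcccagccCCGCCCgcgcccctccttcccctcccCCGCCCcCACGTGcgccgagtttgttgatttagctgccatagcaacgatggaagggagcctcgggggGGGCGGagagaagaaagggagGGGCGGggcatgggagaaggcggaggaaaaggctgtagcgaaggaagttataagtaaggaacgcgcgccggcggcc
KLF5: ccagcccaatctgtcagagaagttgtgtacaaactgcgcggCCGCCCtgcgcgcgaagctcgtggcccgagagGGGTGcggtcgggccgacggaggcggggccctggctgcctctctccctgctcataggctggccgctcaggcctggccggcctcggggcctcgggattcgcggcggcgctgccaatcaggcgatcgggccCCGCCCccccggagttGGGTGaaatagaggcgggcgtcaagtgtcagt
The KLF4 stretch held 4 GC boxes and 1 E-box, and the KLF5 stretch 2 GC boxes and 2 CACCC boxes. A promoter entry was available for 8 of the 10 members, with 2 entries each for KLF5 and KLF11. Counting a motif in any entry of a member, 7 of these 8 had at least 1 GC box, 3 had a CACCC box, 3 had an E-box and 1 had a TATA box (TATAAA). The TATA box lay in the KLF5 entry not shown, 4029 bases from the main start. In the KLF11 entry with an E-box, 138 of the 250 bases lay in an annotated untranslated region. The shares that follow are per stretch. Among 35116 promoter stretches of the same length, 42.6% held a GC box, 54.7% a CACCC box, 6.34% an E-box and 10.7% a TATA box. No member had an ETS core (CCGGAA, in 14.5% of all stretches) or an AP-1 site (TGANTCA, in 6.57%) in this window, which says only that these letters are absent from it. Motifs may overlap, and a match is not evidence of binding.

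The depth of an input library was 2276693 to 2845568 reads inside reading frames, and a footprint library held 10127477 to 19181588. The members were covered by 16 to 426 reads per input library and by 57 to 5545 per footprint library. Standard errors of the member changes were nevertheless similar, at 0.18 to 0.39 in input and 0.12 to 0.41 in footprints (log2). The ERK targets DUSP6, SPRY4 and ETV5 changed by -7.63, -6.94 and -6.39 (log2) in input, in the direction of the trametinib labels. Their mean trametinib input levels were 6.58, 3.32 and 9.1 normalized counts, near the floor, so only the direction is used. The 6 epithelial markers summed to between 30055 and 45296 normalized counts per library in DMSO input and to between 49967 and 62215 in trametinib input, with no overlap. In footprints the sums were 50992 to 69815 in DMSO and 77820 to 90704 in trametinib, and their part in the results below was not tested. The keratins KRT8, KRT18 and KRT19 had the highest levels of the 6 markers. They changed by 0.69, -0.21 and 1.25 (log2) in input, and EPCAM, CDH1 and CLDN4 by 0.27, 0.93 and 0.43. In footprints KRT18 changed by -0.12, and the other epithelial markers changed upward. Of 7 markers of other cell types, PTPRC, CD3E, PECAM1 and COL1A2 had group means of 1.71 normalized counts or less, and 2 had no row in the table. COL1A1, a collagen chain of connective tissue, was the exception, at mean levels of 42.2 to 66.9.

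One feature of the libraries bears on nearly all results below. Replicate 1 of DMSO held the most reads of the 3 DMSO replicates, in input and in footprints alike, for 8 of the 10 members, all but KLF13 and KLF16. The same was true of 24.1% of the 10663 genes tested, and the corresponding shares were between 7.34% and 13.6% for each of the other 5 replicates within its own treatment. Relative to the mean of DMSO replicates 2 and 3, KLF4 was 2.56-fold higher in replicate 1 in input and 2.70-fold higher in footprints, above 98.6% and 98.9% of all genes. KLF5 was 2.16-fold and 1.93-fold higher, and KLF11 2.97-fold and 1.75-fold higher. KLF16 was the most even member, at 0.958-fold and 1.01-fold. Changes in input and footprints are therefore given with and without DMSO replicate 1. The replicate was singled out because members were high in it, so leaving it out moves the changes of those members upward by construction. Calls that appear only without it show how far a result depends on that library and are not support for a rise. What set this replicate apart was not tested.

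**Figure D1:**
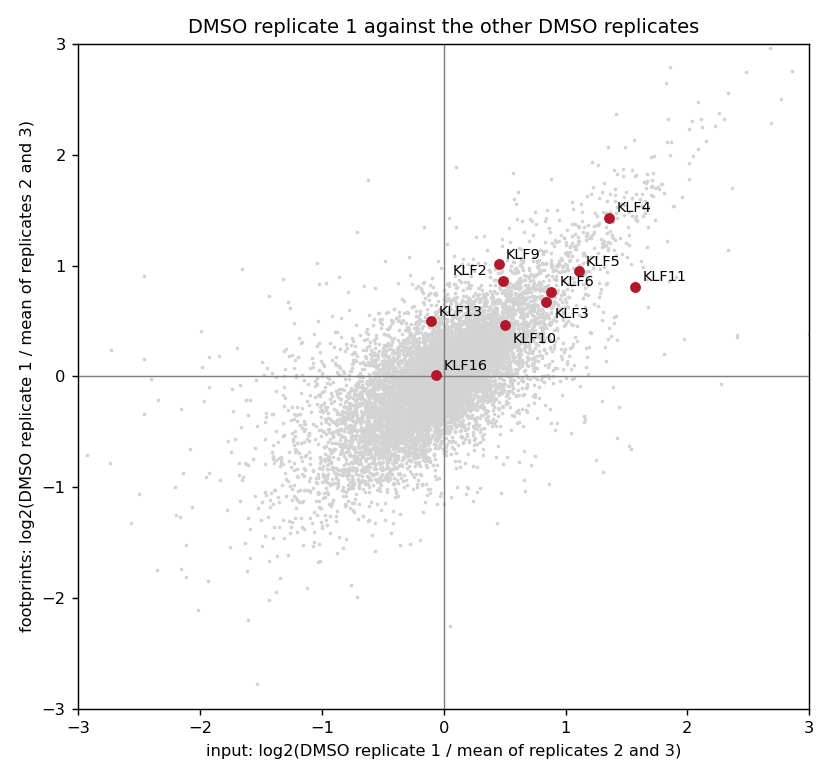
Each gray point is a gene, placed by the log2 ratio of DMSO replicate 1 to the mean of DMSO replicates 2 and 3 in input (x axis) and in footprints (y axis), and red points are the 10 KLF genes (genes beyond 3 on an axis are not drawn). KLF4 lies at 1.36 and 1.43, and KLF16 lies near 0 on both axes.

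The first comparison asked how KLF mRNA changed relative to that of other genes after MEK inhibition. KLF4 and KLF10 mRNA was lower and KLF13 mRNA higher after trametinib (edgeR quasi-likelihood test over all 10663 genes, called at an adjusted p-value under 0.05). Over all genes tested, 15.4% were called higher and 16.8% lower, against 1 and 2 of the 10 members, and all 10 members had passed the filter on low counts with over 10 reads in every library. Bulk values such as these do not tell fewer expressing cells from less RNA per cell. The median log2 change was -0.14 among the members and -0.00 among all genes.

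Input reads of KLF4 were 447, 156 and 192 normalized counts in DMSO replicates 1, 2 and 3, and 108, 69.5 and 100 in the trametinib replicates. All 3 trametinib libraries lay below the lowest DMSO library, with DMSO replicate 1 far above the rest. KLF4 mRNA fell to 35.2% of its DMSO level (log2 change -1.51, SE 0.36, adjusted p = 0.00705). Without DMSO input replicate 1 the change was -0.89 (SE 0.24, adjusted p = 0.00852). KLF4 mRNA was thus called lower with and without that library, at different sizes.

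KLF10, the TGF-beta inducible member, had the smallest standard error of the members in input. Its input reads were 919, 683 and 613 normalized counts in DMSO and 385, 371 and 416 in trametinib, with no overlap. The log2 change was -0.91 (SE 0.18, adjusted p = 0.00201), and -0.72 without DMSO input replicate 1 (adjusted p = 0.00188). KLF13, a SIN3-binding member that is known from T cells and heart, moved the other way. Its input reads were 45.3, 38.9 and 58.5 normalized counts in DMSO and 111, 66.9 and 77.1 in trametinib, and the groups did not overlap. The log2 change was 0.85 (SE 0.28, adjusted p = 0.0372). This call rested on between 18 and 46 raw reads per library and was lost in 4 of the 6 fits that left out 1 library, with adjusted p-values up to 0.188, without DMSO replicate 1 (log2 change 0.82, adjusted p = 0.0542) or 2 (0.126) and without trametinib replicate 1 (0.188) or 3 (0.0664).

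KLF6, a member with a tumour suppressor role in several carcinomas, had input reads of 412, 218 and 229 normalized counts in DMSO and of 197, 201 and 152 after trametinib. The groups did not overlap, yet the log2 change of -0.64 (SE 0.25) missed the threshold with an adjusted p = 0.0701, and it was -0.28 (adjusted p = 0.306) without DMSO input replicate 1. Leaving out DMSO replicate 2 or 3 instead gave -0.80 (adjusted p = 0.0462) and -0.77 (adjusted p = 0.0386), and the fit without a filter on low counts gave -0.66 (adjusted p = 0.03).

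KLF5 and KLF11 were the members whose call in input appeared when DMSO replicate 1 was left out. KLF5 input reads were 591, 257 and 290 normalized counts in DMSO and 349, 461 and 388 after trametinib, so that every trametinib library lay above DMSO replicates 2 and 3 and below replicate 1. Its log2 change was 0.08 (SE 0.27, adjusted p = 0.857) with all libraries and 0.55 (SE 0.19, adjusted p = 0.0303) without DMSO input replicate 1. KLF11 input reads were 183, 45.4 and 77.3 normalized counts against 113, 131 and 100 after trametinib, the same arrangement. Its change was 0.17 (adjusted p = 0.77) with all libraries and 0.92 (adjusted p = 0.0189) without that library. Without DMSO input replicate 1, KLF5 and KLF11 were thus called higher and KLF4 and KLF10 lower, 2 members each, against 16.6% and 18.0% of all genes.

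For the remaining 4 members, KLF2, KLF3, KLF9 and KLF16, the input groups overlapped and the changes lay between -0.28 (KLF2, 95% interval -0.77 to 0.21) and 0.44 (KLF9, 95% interval -0.22 to 1.09). None of them was called without DMSO input replicate 1 either, where the changes were -0.10 for KLF2, 0.60 for KLF9 and -0.10 for KLF16. For KLF3, the change was -0.20 with all libraries and 0.14 without that replicate.

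**Figure D2:**
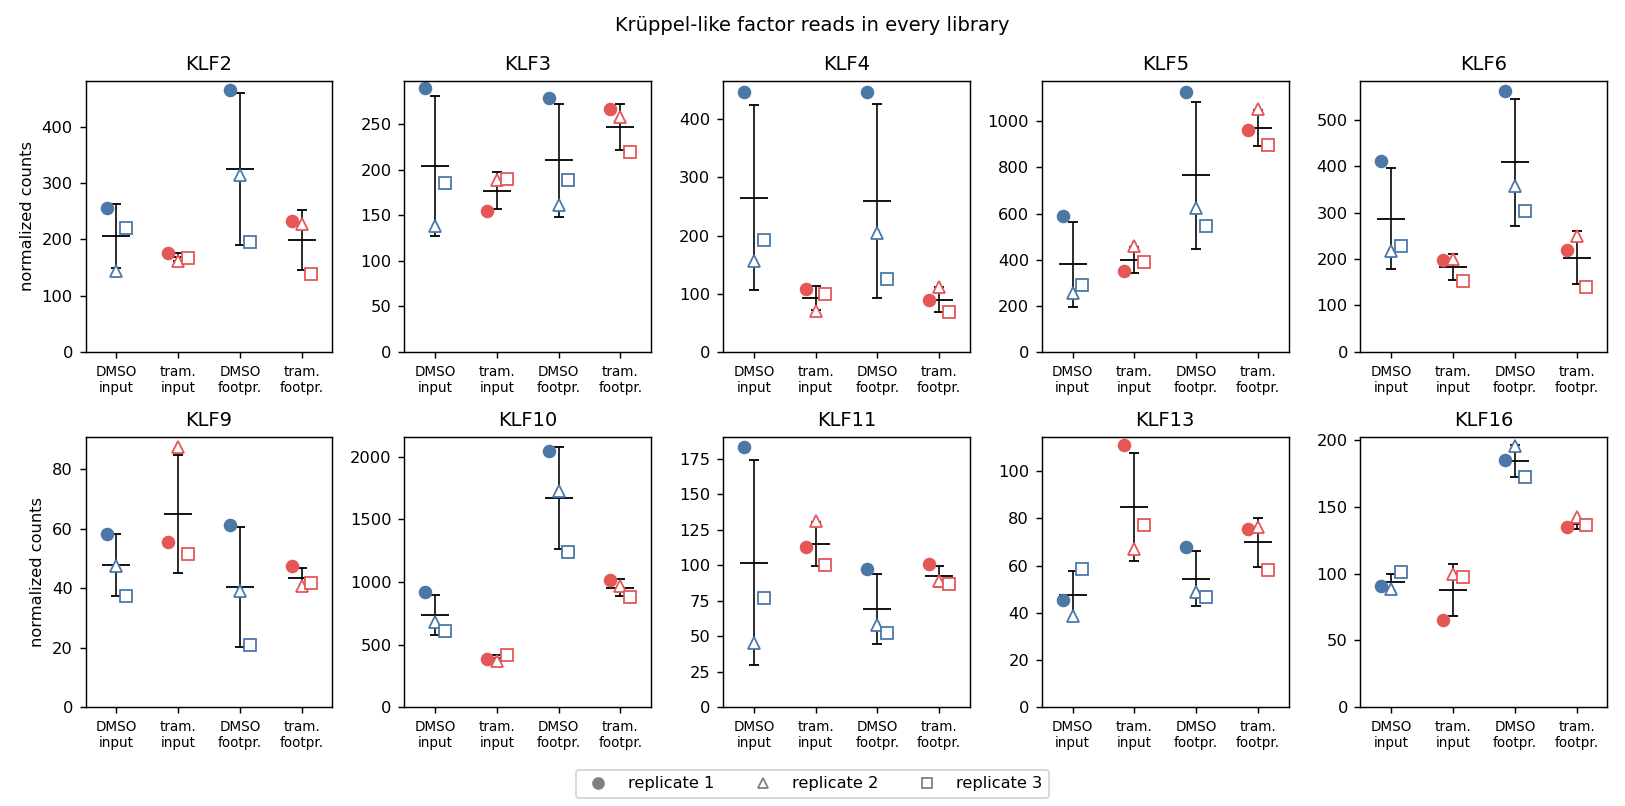
Normalized counts (y axis, linear) of each KLF gene in the 4 groups, with 1 symbol per library, replicate 1 filled, and bars for the mean ± SD of 3 libraries. Replicate 1 is the highest DMSO point in both assays in all panels but KLF13 and KLF16. In both assays the trametinib points of KLF4, KLF6 and KLF10 lie below all DMSO points of that assay, which was not counted over all genes.

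The second comparison asked how footprints on KLF reading frames changed relative to those of other genes. Counts are scaled per library, so a change of translation common to all genes does not appear in them. The study reports such a global repression by polysome profiling, and the values below do not measure it. Footprints of KLF4, KLF6, KLF10 and KLF16 were lower in trametinib, and no member was called higher. Of 11941 genes tested in footprints, 24.5% were called lower and 24.1% higher, so 4 of 10 members lower stands beside about 1 in 4 of all genes. Footprint levels of these 4 members did not overlap between the groups, and those of the other 6 did. The share of all genes without overlap was not computed, so this count is not a result about the members. The median change of the members was -0.17 (log2) and that of all genes 0.00.

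Footprints of KLF4 were 447, 204 and 126 normalized counts in DMSO and 89.4, 111 and 69.0 in trametinib. The change of -1.54 (log2, SE 0.41, adjusted p = 0.0127) was close to that in input, and was -0.86 (SE 0.21, adjusted p = 0.00294) without DMSO footprint replicate 1. The call was lost only without trametinib footprint replicate 3 (-1.40, adjusted p = 0.061). KLF10 footprints were 2043, 1731 and 1237 normalized counts in DMSO and 1015, 973 and 884 in trametinib, a change of -0.81 (SE 0.18, adjusted p = 0.00475). KLF10 was called lower in every alternative fit of both assays, with footprint changes between -0.99 and -0.64.

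KLF6 footprints were 562, 357 and 304 normalized counts in DMSO and 219, 250 and 139 in trametinib. They fell to 49.6% of the DMSO level (log2 change -1.01, SE 0.27, adjusted p = 0.0119), and the change was -0.70 (adjusted p = 0.00487) without DMSO footprint replicate 1. KLF16 footprints were 185, 195 and 172 normalized counts in DMSO and 135, 142 and 136 in trametinib. With the tightest replicates of all members, this smaller change of -0.43 (SE 0.12, adjusted p = 0.0150) passed the threshold and was -0.42 without DMSO footprint replicate 1. It was not called without trametinib footprint replicate 1 (adjusted p = 0.0679). KLF2 footprints were 465, 315 and 196 normalized counts in DMSO and 232, 228 and 138 in trametinib, which overlapped. The change of KLF2 was -0.71 (SE 0.30, adjusted p = 0.0805), but -0.67 with an adjusted p = 0.0061 when the replicate number was added as a block, which pairs the footprint libraries of equal number. DESeq2 also called KLF2 (-0.72, adjusted p = 0.0326), which makes 5 members lower in that fit, beside 24.7% of all genes. The change was -0.34 (adjusted p = 0.194) without DMSO footprint replicate 1 and -0.97 (adjusted p = 0.012) without DMSO footprint replicate 3.

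KLF5 trametinib libraries again lay above DMSO replicates 2 and 3 and below replicate 1. Its footprints were 1128, 622 and 544 normalized counts in DMSO and 962, 1054 and 898 in trametinib. The log2 change was 0.34 (SE 0.24, adjusted p = 0.28) with all libraries and 0.73 (SE 0.11, adjusted p = 6.57e-05) without DMSO footprint replicate 1. KLF11 footprints were 97.2, 58.0 and 52.7 normalized counts in DMSO and 101, 88.7 and 87.1 in trametinib, and the change of 0.40 (adjusted p = 0.179) became 0.74 (adjusted p = 0.000808). KLF3, the CtBP-binding repressor, went from 0.23 (adjusted p = 0.362) to 0.49 (adjusted p = 0.00488). KLF9 went from 0.09 to 0.60 (adjusted p = 0.0421), and KLF13 from 0.35 to 0.55 (adjusted p = 0.013). Without DMSO footprint replicate 1, 5 members were thus called higher and the same 4 as before lower, beside 29.3% and 29.5% of all genes. All 5 had their highest DMSO level in the library left out, so their upward shift was fixed in advance. In neither assay was a member called higher in one fit and lower in another.

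**Figure D3:**
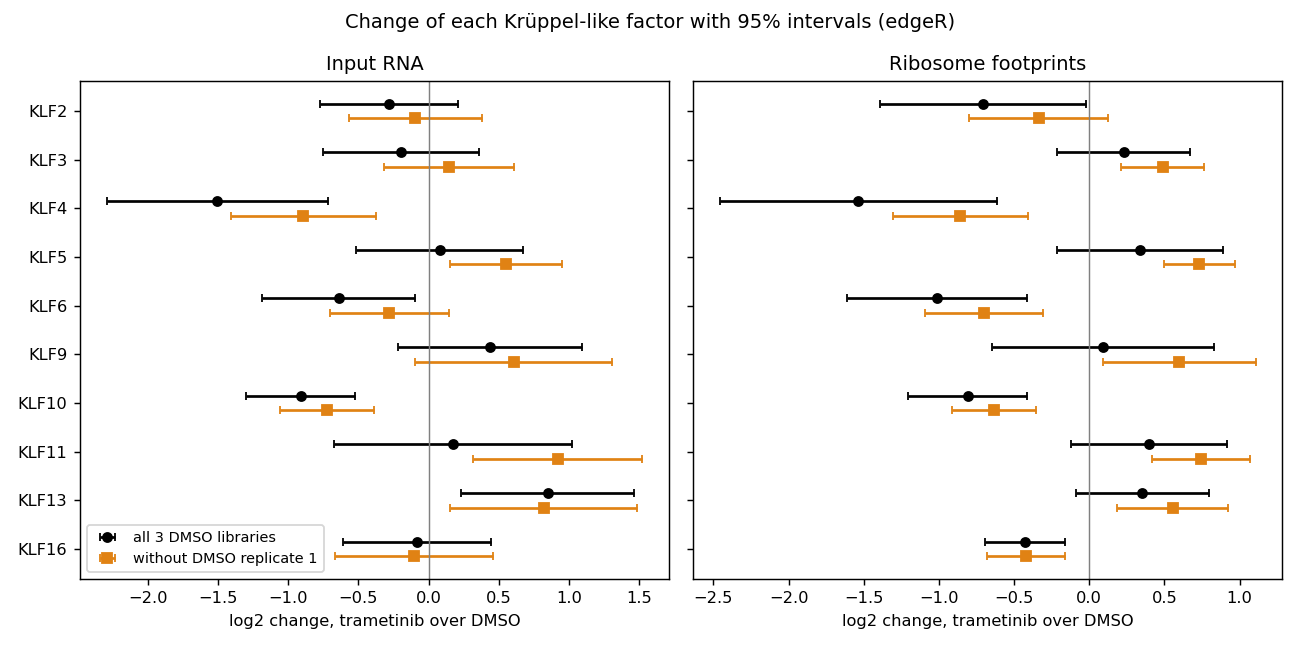
Log2 change of trametinib over DMSO (x axis) with 95% intervals for each KLF gene in input (left) and footprints (right), with all libraries (black circles) and without DMSO replicate 1 of that assay (orange squares). The squares of KLF5 lie at 0.55 and 0.73 with intervals above 0, and those of KLF4 at -0.89 and -0.86 with intervals below 0. For both genes the library left out was the highest DMSO library.

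The third comparison asked whether translation of the KLF mRNAs changed beyond their abundance, relative to the average gene. Ribosome density (RD), the footprints relative to input, was tested as the interaction of assay and treatment over all 12 libraries. No member was called, and none had an unadjusted p-value under 0.05. Of 10663 genes, 0.0938% were called with a higher and 0.816% with a lower density, so few calls were to be had among 10 genes. Changes ranged from -0.42 (KLF13) to 0.51 (KLF3), with standard errors of 0.24 to 0.64 against a median of 0.266 for all genes.

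The labels give only replicate numbers, and input and footprint libraries of equal number are taken here as the same dish. The 95% intervals below are those of the main fit, which has no term for the dish. They therefore include differences between dishes that both assays have in common. With a term for each dish, again no member was called. KLF10 had a change of 0.19 with an interval of -0.37 to 0.74, while that of KLF4, 0.05, had an interval of -1.33 to 1.43, which includes a log2 of 1 in either direction. Without both libraries of DMSO dish 1 the KLF4 value was 0.09 with an interval of -0.67 to 0.85. KLF6 was the only member whose densities did not overlap between treatments. How many of all genes had such densities was not counted, so this does not set KLF6 apart. In DMSO its log2 ratios of footprints to input were 0.45, 0.71 and 0.41 in dishes 1, 2 and 3, and in trametinib 0.15, 0.32 and -0.13, where a dish is the input and footprint library of equal number. Its change was -0.29 (SE 0.41, 95% interval -1.17 to 0.59, adjusted p = 0.939). With a term for each dish it was -0.32 (SE 0.19, adjusted p = 0.529).

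KLF5 ratios were 0.93, 1.27 and 0.91 in DMSO and 1.46, 1.19 and 1.21 in trametinib, where only DMSO dish 2 lay among the trametinib values, with a change of 0.34 (SE 0.42, adjusted p = 0.922). KLF3 had the highest change of the members, from ratios of -0.05, 0.22 and 0.03 in DMSO to 0.79, 0.46 and 0.20 in trametinib (0.51, SE 0.35, adjusted p = 0.77). Without both libraries of DMSO dish 1, again none of the 10 members was called, and changes lay between -0.36 (KLF6) and 0.41 (KLF3), with 0.24 for KLF5 and 0.15 for KLF10.

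**Figure D4:**
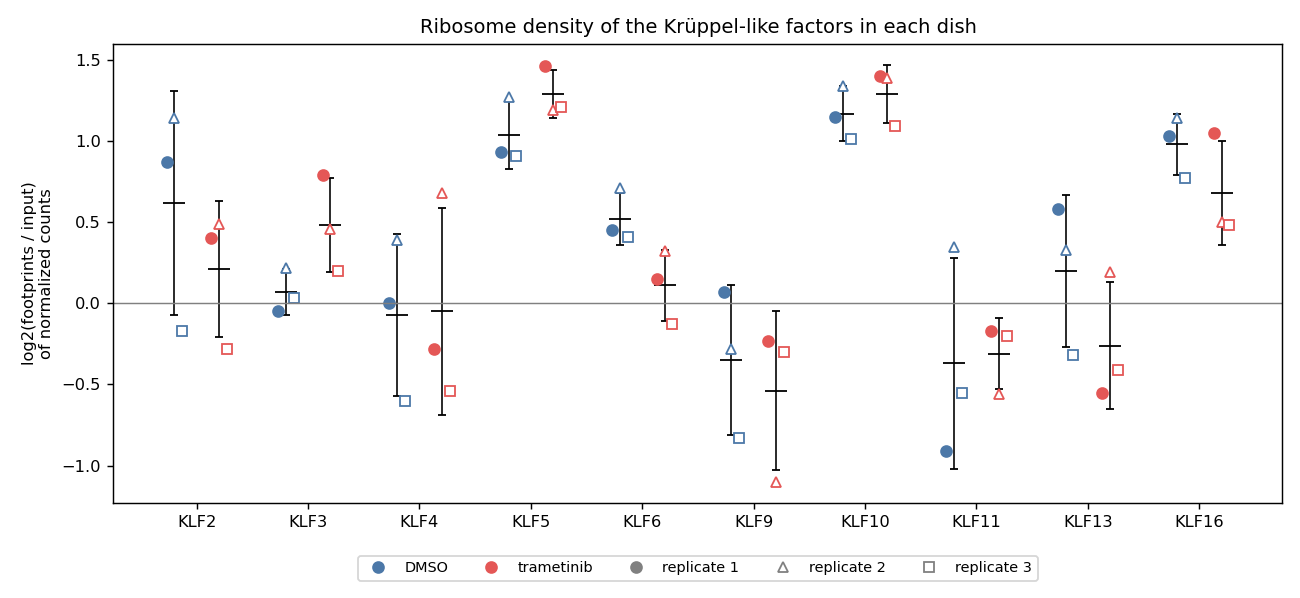
Log2 ratio of footprint to input normalized counts (y axis) of each KLF gene, with 1 symbol per dish (replicate 1 filled), DMSO in blue and trametinib in red, and bars for mean ± SD of 3 dishes. KLF5, KLF10 and KLF16 lie above 0 in every dish. KLF6 is the only gene shown whose DMSO and trametinib points do not overlap, which was not counted over all genes.

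Untreated densities differed among the members. In DMSO, KLF10 and KLF16 had more footprints relative to input than the average gene, with log2 values of 1.13 (SE 0.23, adjusted p = 0.003) and 0.93 (SE 0.18, adjusted p = 0.00187). Of 9987 genes tested in DMSO, 26.6% were called above and 27.8% below their input, against 2 and 0 of the 10 members. The ratios of KLF10 were 1.15, 1.34 and 1.01 in the 3 DMSO dishes, and those of KLF16 1.03, 1.14 and 0.77. The value of KLF10 lay above those of 90.3% of all genes, and that of KLF16 above 86.0%.

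KLF5 had a similar value, 0.96, with a larger error (SE 0.37, adjusted p = 0.0503), and it was 1.45 (adjusted p = 0.0036) without DMSO input replicate 1 and 0.59 (adjusted p = 0.12) without DMSO footprint replicate 1. With the replicate number as a block, which pairs the input and footprint library of a dish, KLF5 was called at 0.98 (SE 0.14, adjusted p = 3.99e-05), as were KLF2 at 0.56 (adjusted p = 0.0315) and KLF6 at 0.47 (adjusted p = 0.0124), which brings the count from 2 to 5 members. The share of all genes called higher also rose, from 26.6% to 33%. KLF5 was also called with median-of-ratios factors (adjusted p = 0.0461), DESeq2 (0.0174), limma-trend (0.0417) and no filter (0.0179). Without both libraries of DMSO dish 1, KLF10 (1.16), KLF16 (0.92), KLF5 (1.05, adjusted p = 0.000239) and KLF6 (0.52, adjusted p = 0.0418) were called. That fit called 28.3% of all genes higher. At the other end, KLF11 had -0.60 (SE 0.45, adjusted p = 0.283) and KLF9 -0.29 (SE 0.41, adjusted p = 0.568). Ratios of KLF11 were -0.91, 0.35 and -0.55 in the 3 dishes, so that its sign differed between dishes.

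Levels per kilobase of coding sequence set the members in order. The GC content of the coding sequences ran from 50.0% (KLF10) to 77.1% (KLF16), and its part in the order was not tested. In DMSO input the order of the means was KLF10 (513 ± 111 normalized counts per kb, SD, n = 3), KLF6 (338 ± 128), KLF5 (277 ± 134), KLF3 (197 ± 74.6), KLF2 (193 ± 53.8), KLF4 (184 ± 110), KLF16 (123 ± 8.57), KLF11 (66.4 ± 47.0), KLF9 (65.2 ± 14.2) and KLF13 (55.1 ± 11.6). The ranges of neighbours in this order overlapped in all 9 cases. In trametinib input KLF5 (291 ± 41.3) stood first, with a range that overlapped that of KLF10 (271 ± 16.3), and KLF4 (64.5 ± 14.3) stood last. KLF4 thus went from the 6th to the 10th place, although its range overlapped that of KLF11 (74.8 ± 10.1) just above it.

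In footprints, KLF10 led in DMSO with 1160 ± 282 normalized counts per kb, apart from KLF5 at 558 ± 231. In trametinib, KLF5 (708 ± 57.3) and KLF10 (665 ± 46.4) overlapped, and both were apart from KLF3, the next at 239 ± 24.3. The lowest in trametinib footprints were KLF4 (62.5 ± 14.6), KLF11 (60.0 ± 4.87) and KLF9 (59.1 ± 4.83), whose neighbouring ranges overlapped.

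**Figure D5:**
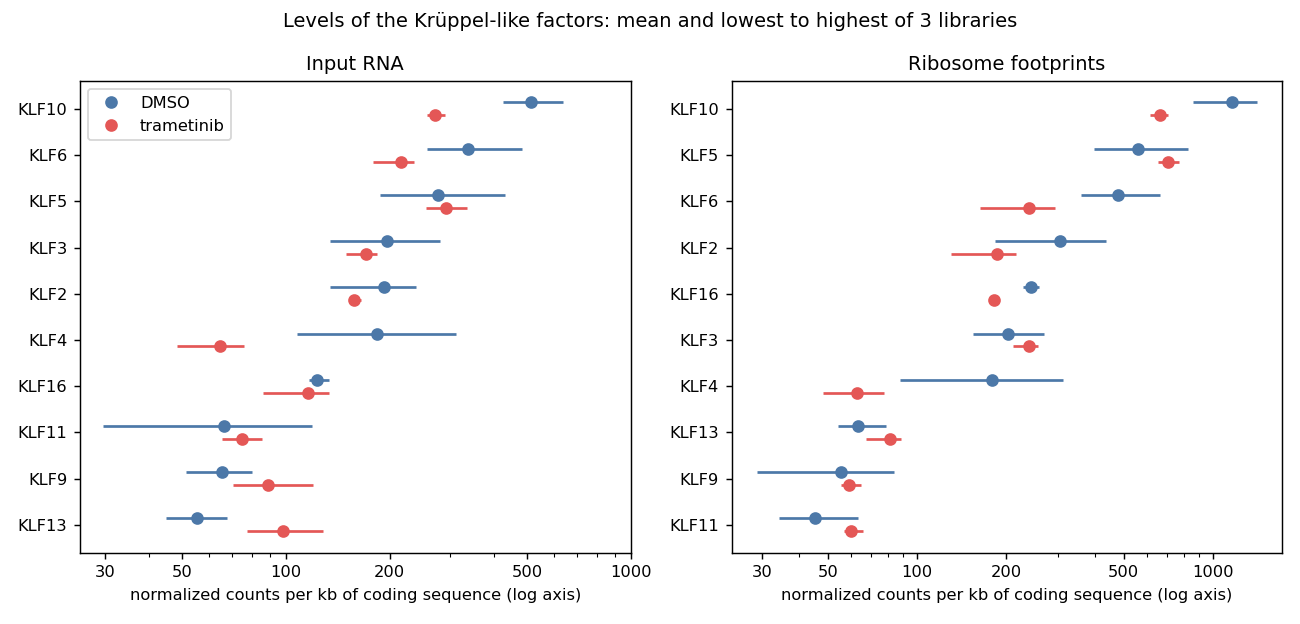
Normalized counts per kb of coding sequence (x axis, log scale) of each KLF gene in input (left) and footprints (right), with the mean as a point and a line from the lowest to the highest of 3 libraries, DMSO in blue and trametinib in red. KLF10 leads in DMSO footprints at 1160 per kb. The DMSO and trametinib lines of KLF4, KLF6 and KLF10 do not overlap in either panel.

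Members differed in which genes they ran with. Across the 12 libraries, which share 2 treatments, 2 assays and DMSO replicate 1, log2 CPM of KLF4 correlated at r = 0.87 with KLF6 and at r = 0.07 with KLF5, KLF2 at r = 0.87 with KLF6, and KLF10 at r = 0.85 with KLF16. Among the 10663 genes, the pattern of KLF4 was most like those of DUSP5 (Pearson r = 0.965), PYCR1 (0.962) and MTO1 (0.953), and that of KLF5 most like those of NDRG1 (0.989), UBE2E2 (0.969) and NSMCE1 (0.967). These correlations describe the 12 libraries and are not tests.

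Of 17 further KLF and SP genes, 7 could be tested in input and 10 in footprints. SP6, an epithelial SP factor, and KLF7, a member known from neurons, were called higher in trametinib in both assays, though KLF7 passed the input filter through its trametinib libraries (19 to 33 reads, against 8 to 14 in DMSO), where it was high. Input levels of KLF7 were 24.4 ± 6.56 (SD, n = 3) and 68.6 ± 18.2 normalized counts, and its footprint change was 0.77 (adjusted p = 0.0414). SP6 rose by 1.23 in input (adjusted p = 0.00842) and by 0.50 in footprints (adjusted p = 0.046). SP3 and SP4, which bind the same GC boxes as SP1, were lower in footprints by -0.41 (adjusted p = 0.0283) and -0.54 (adjusted p = 0.0127), and were not called in input. SP1 was not called in either assay, with changes of 0.39 (adjusted p = 0.06) and 0.22 (adjusted p = 0.128). KLF8 and SP5 passed the footprint filter only through the trametinib libraries, with 16 to 19 and 12 to 17 reads against 2 to 8 and 3 to 6 per DMSO library, so their calls follow from the filter and are not counted here. Among the genes with at least 10 reads in every library, 1 of 6 was higher and 0 lower in input, and 2 of 8 were higher and 2 lower in footprints, beside 15.4% and 16.8% of all genes in input and 24.1% and 24.5% in footprints. None of the 7 was called in ribosome density.

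Upstream of the KLF genes, the MEK5-ERK5-MEF2 cascade is known to induce KLF2 and KLF4, and ubiquitin ligases such as WWP1 and SMURF proteins are known to act on KLF proteins. Of 14 such genes 13 were tested. Among those with at least 10 reads in every library, 1 of 12 was higher and 1 lower in input (15.4% and 16.8% of all genes), and 2 of 13 were higher and 2 lower in footprints (24.1% and 24.5%). EGR1, an early ERK target, had 458 ± 126 and 10.1 ± 5.15 normalized counts in DMSO and trametinib input, where it passed the filter through its DMSO libraries alone, and a log2 change of -5.57 in footprints. MEF2C, a MADS-box factor, rose from 35.4 ± 3.11 to 206 ± 29.4 in input (2.54, adjusted p = 4.99e-06) and by 2.29 in footprints. SMURF2 was lower in both assays (-1.07 and -0.65), and WWP1 was higher in footprints (0.58, adjusted p = 0.00845) and not called in input (0.32, adjusted p = 0.321). MAPK7 and MAP2K5, which encode ERK5 and MEK5, were called in neither assay, with changes between -0.10 and 0.15. None of the 13 was called in ribosome density.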

How the data were processed

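Per the file headers, the deposited table holds raw counts of 12 libraries and a signal column per library, the counts divided by a size factor of the authors. After adapter removal and a Bowtie 1.2.2 filter against rRNA and tRNA, the authors mapped the remaining reads to Gencode V38 and counted reads of 25 to 35 nt inside reading frames of a single gene symbol. Their fold changes, adjusted p-values (DESeq2 1.46.0) and gene flags were not used. Levels in the text are the deposited normalized counts.

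Groups came from the sample labels. Raw counts were tested with edgeR 4.0.16 (quasi-likelihood, TMM, R 4.3.3), for genes that reached 10 counts in 3 or more input libraries (footprint libraries for the footprint change, DMSO input libraries for the untreated density), with Benjamini-Hochberg adjustment over all genes tested and calls at an adjusted p-value under 0.05. Standard errors are the change divided by the square root of F. Alternatives were DESeq2 1.42.0, limma-trend (limma 3.58.1, prior count 2), other size factors, no filter, replicate blocks and leaving out libraries. Reading frames and windows were taken from Gencode v44, a later release than that of the counts. No sequence of KLF10 or KLF13 is shown, nor the linker of KLF16, whose first linker the search pattern did not find.

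The named genes were all 10 members, any detected gene of the KLF and SP list, at most 4 called genes of each other list with the largest footprint change, 3 ERK targets, and the 3 genes most correlated with KLF4 and KLF5. KLF2, SP1 and other uncalled genes named for their values were chosen after these were seen. The members and lists were chosen with earlier results of these data known.

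Input and footprints were prepared from the same lysates according to the methods, and equal replicate numbers were taken as a dish. Over 7669 genes with a mean of at least 100 normalized counts, deviations from group means correlated at 0.816, 0.181 and 0.343 between input and footprints of DMSO replicates 1, 2 and 3, and at 0.141, 0.0803 and -0.122 in trametinib. Across treatments they correlated at 0.117, 0.133 and 0.294 in footprints and at 0.068, 0.0484 and 0.334 in input. The labels give only replicate numbers, while the study describes its replicates as biological.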

Additional observations from a re-analysis of the deposited data

How the results depend on the processing

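Of 540 values of single members under alternative fits, 469 kept direction and side of the threshold, 7 lost the call, 27 gained one and 37 changed sign, none of these past the threshold and none from a change above 0.60 in size. The cause of these shifts was not tested. KLF10 kept its calls in input and footprints in every alternative. Members called higher in input numbered 1, 0 with DESeq2 and 0 to 2 with 1 library left out, beside 15.4%, 13.1% and 10% to 16.6% of all genes. Members called higher in footprints ranged from 0 to 5 with 1 library left out, beside 17.2% to 29.3% of all genes. Members with a higher untreated density numbered 2, 5 with the replicate block, 3 with median-of-ratios factors, DESeq2, limma-trend or no filter, 2 to 4 with 1 library left out and 4 without both DMSO dish 1 libraries, a fit chosen after the data were seen. Of all genes, 26.6% were called higher there in the main fit. The share was 33% with the replicate block and 28.3% without both DMSO dish 1 libraries. With median-of-ratios factors, DESeq2, limma-trend and no filter it was 26.8%, 27.2%, 26.9% and 21%. With 1 library left out it ranged from 21.9% to 26.9%.

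Over all genes, calls of higher ribosome density numbered 10, 5 with median-of-ratios factors, 37 with DESeq2, 31 with the dish replicate block, 4 with TMM within each assay and 21 without both DMSO dish 1 libraries, and 1 to 12 with 1 library left out. Lower calls numbered 87, 150 with DESeq2 and 49 to 101 with 1 library left out. Higher input calls ranged from 1069 to 1767 with 1 library left out. Without trametinib input replicate 2 they numbered 1069, against 1641.

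The density change of KLF4 was -0.02 with median-of-ratios factors, with DESeq2 and with TMM within each assay. Without both DMSO dish 1 libraries, that of KLF9 was 0.05 and that of KLF11 -0.12. The untreated density of KLF3 was 0.02 with limma-trend, 0.06 without the filter, 0.01 with the replicate block and 0.08 without both DMSO dish 1 libraries, where that of KLF13 was -0.06.

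With 1 library left out, the input change ranged from -0.42 to 0.14 for KLF3, -0.14 to 0.55 for KLF5, -0.18 to 0.92 for KLF11 and -0.20 to 0.10 for KLF16, and the footprint change of KLF9 from -0.24 to 0.60. The density change ranged from -0.61 to 0.02 for KLF2, -0.56 to 0.73 for KLF4, -0.13 to 0.74 for KLF5, -0.65 to 0.02 for KLF6, -0.59 to 0.24 for KLF9, -0.00 to 0.36 for KLF10 and -0.44 to 0.67 for KLF11. The untreated density ranged from -0.25 to 0.35 for KLF3, -0.72 to 0.55 for KLF4, -0.75 to 0.04 for KLF9, -0.96 to 0.16 for KLF11 and -0.02 to 0.33 for KLF13.

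The input libraries of equal number across treatments share only a number, and only 1 of the 3 pairs correlated above 0.1. With the replicate block in input, KLF6 was called (-0.60, adjusted p = 0.0233) and 1959 genes were higher. With a block for number over all 12 libraries, 11 genes had a higher and 91 a lower density, and no member was called. The block changed no member call other than those given. With 3 libraries a group, 16 to 46 input reads per library for KLF9 and KLF13 limit what a test can show.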

Other observations

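KLF proteins act with corepressors and acetyltransferases, and 12 genes of these cofactors were all tested. Among those with at least 10 reads in every library, 1 of 10 was higher and 0 lower in input (15.4% and 16.8% of all genes), and 1 of 12 was higher and 2 lower in footprints (24.1% and 24.5%). HDAC1, a histone deacetylase of the SIN3 complex, was higher in trametinib in both assays, with input reads going from 2306 ± 175 to 3044 ± 229 normalized counts (SD, n = 3, log2 change 0.41, adjusted p = 0.0368), and a footprint change of 0.37 (adjusted p = 0.0291). SAP30, another subunit of the SIN3 complex, was lower in footprints (-1.06, adjusted p = 0.00339), and its input levels were 65.4 ± 12.1 and 28.7 ± 9.68, where it passed the filter through its DMSO libraries alone. FHL3, a partner of KLF3, was lower in footprints (-0.41, adjusted p = 0.0478) and not called in input (-0.32, adjusted p = 0.436). SIN3A, SIN3B, CTBP1 and CTBP2 were called in neither assay. None of the 12 was called in ribosome density.

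Of 18 genes named in textbooks as KLF targets, 13 were tested. Among those with at least 10 reads in every library, 3 of 11 were higher and 3 lower in input (15.4% and 16.8% of all genes), and 3 of 12 higher and 4 lower in footprints (24.1% and 24.5%). CCNB1, BIRC5 and CCND1, which encode cyclin B1, survivin and cyclin D1, changed by -4.01, -3.83 and -2.33 on the log2 scale in footprints. In input CCNB1 and CCND1 changed by -3.57 and -2.02, and BIRC5 passed the filter there through its DMSO libraries alone. SMAD7, an inhibitor of TGF-beta signalling that KLF10 is known to act on, went from 9.78 ± 6.12 to 99.1 ± 9.53 normalized counts of input, on 2 to 7 reads per DMSO library and 37 to 42 per trametinib library. It passed the filter only through the trametinib libraries, so it is given as values alone. CDKN1A, the cell cycle inhibitor known as a KLF4 target, was called in neither assay, with changes of -0.01 and -0.38. None of the 13 was called in ribosome density, and KRT19 of this list is also one of the epithelial markers.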
